A study of Sus scrofa with 6 samples.

Results

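The 71 genes described here, picked by symbol from the 17950 genes of the deposited table, encode the main chaperone families of the cytosol and the mitochondrion together with their partner proteins. Chaperones help other proteins to fold, to assemble and to reach their place in the cell. Prefoldin takes up newly made actin and tubulin and passes them to the chaperonin CCT, a closed double ring that folds them. Hsp70 binds short exposed stretches of many proteins, and J proteins (DNAJ) bring the clients and start the ATP cycle. Hsp110 and some BAG proteins release the nucleotide. Hsp90 acts later, on steroid hormone receptors and kinases among others, with FKBP prolyl isomerases as partners, and in mitochondria Hsp60 and Hsp10 form a folding chamber of their own. Granulosa cells are the somatic cells around the oocyte, and they make steroid hormones and respond to them through receptors of the kind that Hsp90 serves.

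Members were picked from the symbols of the 17950 Ensembl genes in the deposited table, of which 10757 had a symbol. A gene belonged when its symbol began with HSPA, HSPD, HSPE, HSPH, HSP90A, DNAJ, CCT and a digit, PFDN, BAG and a digit, FKBP or *CACYBP*, or was *TCP1*. *HSPA5* of the endoplasmic reticulum and the small HSPB proteins were left out, as were 3 genes of the TCP11 family, which share only the first letters of *TCP1*. The rule gave 71 genes. Of these, 69 had an Ensembl name, and 2, *PFDN2* and *DNAJB8*, had a symbol only in the supplementary tables of the study, which list genes chosen for a difference between the groups, so counts are also given without them. The RefSeq annotation of the pig (Sscrofa11.1) holds 27 further genes of these families, among them *HSPA1A*, *HSPA2*, *PFDN1*, *PFDN6*, *CCT6A*, *BAG2* and *FKBP1A*, and these were not analysed here.

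The cells were primary granulosa cells of Landrace pre-pubertal gilts, and the number of animals is not given in the sources used here. They were infected for 72 h with a lentivirus made from pLVX-IRES-ZsGreen that carried porcine *RBP4*, the plasma carrier of retinol (pLVX-*RBP4* group, 3 libraries), or with the virus of the empty vector (CTRL group, 3 libraries), so both groups carried the vector and its green fluorescent reporter. The authors' table holds 1 FPKM value (fragments scaled to transcript length and to the mapped fragments of a library) per gene and group, and every value given here is such a group value of the authors. The spread between libraries is not known from these values, no test could be made, and "higher" and "lower" describe the sequenced groups only. Differences are those of log2(FPKM + 1), pLVX-*RBP4* minus CTRL, and genes whose FPKM averaged 1 or more across the groups (12382 genes, 65 of them members) are called expressed.

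*RBP4* itself had 1.10 FPKM in CTRL cells and 92.3 FPKM with pLVX-*RBP4*. The granulosa label was checked on 5 of 11 marker genes that were matched by symbol, and *FSHR*, the receptor of follicle-stimulating hormone, had 9.99 and 8.47 FPKM, *INHA*, the inhibin alpha subunit, 28.6 and 27.5 FPKM, and the transcription factor *GATA4* 59.2 and 57.8 FPKM. *FOXL2*, *CYP19A1* and *AMH* were not matched by symbol and not analysed here. Markers of other cells were present too, with 4 stromal genes summing to 713 and 842 FPKM (*COL3A1* 525 and 611, *DCN* 169 and 210.1, *LUM* 6.82 and 9.10 and *PDGFRA* 12.6 and 11.2 FPKM, with *DCN* and *LUM* higher by 0.32 and 0.37 and *PDGFRA* lower, -0.16), 4 leukocyte genes to 47.6 and 54.1 FPKM, mainly *CD14*, and 2 endothelial genes to 19.9 and 19.0 FPKM, while the leukocyte marker *PTPRC* was below 1 FPKM in both groups. The matched theca genes summed to 673 and 670 FPKM, nearly all from *CYP11A1*, which granulosa cells also express, and the 3 epithelial genes to 13.3 and 13.5 FPKM. The part of these cells in the results below was not tested, and in bulk RNA fewer cells of a type and less RNA per cell cannot be told apart.

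The members as a whole had somewhat higher values in the pLVX-*RBP4* group. Of the 65 expressed members, 53 (81.5%) were higher and 12 lower, while of all expressed genes 50.2% were higher. The 53 include *CCT6B*, which averaged 1 FPKM only through its pLVX-*RBP4* value. With a mean of at least 5 FPKM, which leaves it out, 49 of 59 members were higher, beside 52.0% of all genes. The median difference of the members was 0.14, with the middle 50% of members between 0.027 and 0.23, against a median of 0.0014 for all genes. With a difference of at least 0.3, which is a 1.23-fold change for a well expressed gene, 10 members (15.4%) were higher, beside 8.41% of all genes. No member was lower by that much, beside 6.36% of all genes. Without *PFDN2* and *DNAJB8* the counts were 9 of 64 past the limit and 52 of 64 higher.

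These counts depended on how the groups were scaled. A single other gene, ENSSSCG00000025162, held 35.4% of all FPKM in CTRL cells and 25.8% with pLVX-*RBP4*. After rescaling both groups to a common sum, 59 of 65 members were higher (64.9% of all genes). With that dominant gene set aside before rescaling to a common sum, 36 of 65 members (55.4%) were higher beside 30.1% of all genes, since the median of all genes moved to -0.11 there. The median of the members stayed above that of all genes by 0.13 to 0.14 under all 5 scalings (as deposited, common median, common upper quartile and both sums). The 10 members past the limit were higher under each of them, while 17 members that were higher as deposited were lower with the dominant gene set aside, among them *HSP90AA1*, *HSP90AB1*, *CCT3*, *CCT7*, *TCP1* and *DNAJB1*.

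**Figure D1:**
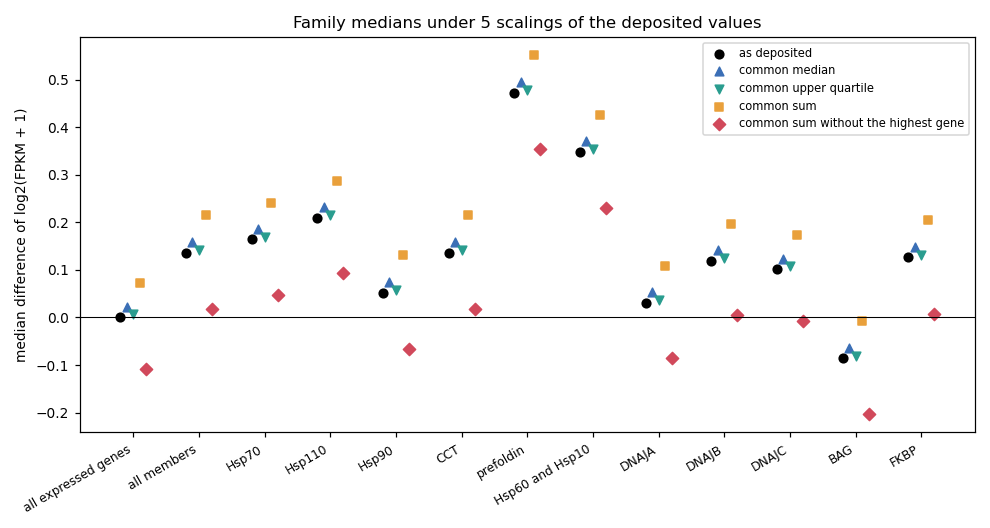
Median difference of log2(FPKM + 1) (vertical axis) of all expressed genes, all members and each family under 5 scalings of the deposited values. All points shift together, from the common sum (highest) to the common sum without the highest gene (lowest), and prefoldin (0.35 to 0.55) and the Hsp60 and Hsp10 pair (0.23 to 0.43) stay above 0 throughout. The prefoldin points are the values of *PFDN2*, whose symbol came only from the supplementary tables of the study.

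Among the 55 members within the limit, 43 were higher as deposited and the median difference was 0.092. Of all expressed genes, within the limit or past it, 50.2% were higher, with a median of 0.0014. The same values for all genes within the limit only were not computed. *FKBPL* was the closest below the limit, with 0.299, and *DNAJC1* the closest above it, with 0.306.

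**Figure D2:**
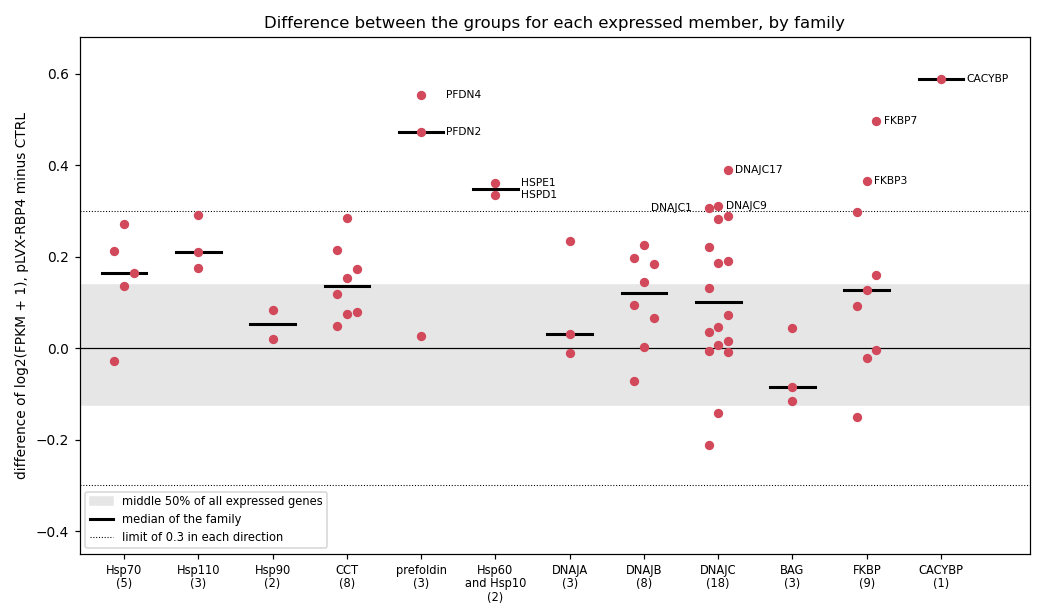
Difference of log2(FPKM + 1) between the groups (vertical axis, pLVX-*RBP4* minus CTRL) for the 65 expressed members, in columns by family with the number of members in brackets. Points are genes, black bars family medians, the grey band the middle 50% of all expressed genes and dotted lines the limit of 0.3 in each direction. *CACYBP* stands highest (0.59), and no point lies below the lower line. Prefoldin and the Hsp60 and Hsp10 pair have the highest medians of the families with several genes (0.47 and 0.35). The prefoldin median is the value of *PFDN2*, whose symbol came only from the study's tables of genes chosen for a difference. With Ensembl names only it is 0.29, below that of the Hsp60 and Hsp10 pair.

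By medians, the excess of the members over all genes was not the same at every level. All expressed genes were split by mean FPKM into 4 classes, a split made after the values were seen, because the more abundant genes of the whole table tended to be higher in the pLVX-*RBP4* group. The median of all genes went from -0.020 between 1 and 10 FPKM to 0.11 at 200 FPKM and above. The 12 members between 1 and 10 FPKM had a median of 0.17, the 29 members between 10 and 50 FPKM one of 0.16 (all genes -0.0035), and the 16 members between 50 and 200 FPKM one of 0.14 (all genes 0.050). In contrast, the 8 most abundant members, at 200 FPKM and above, had a median of 0.048, which is below that of all genes of their class. Below 200 FPKM 48 of 57 members lay above the median of their class, and at 200 FPKM and above 2 of 8 did, *PFDN2* and *HSPE1*. These 2 had 176 and 177 FPKM in CTRL cells and averaged 200 FPKM only through the pLVX-*RBP4* group. Their direction in that class was thus partly fixed by the split. The shares past the limit of 0.3 did not follow the order of the medians. They were 8.33% of members and 8.49% of all genes between 1 and 10 FPKM, and 17.2% and 7.42% between 10 and 50 FPKM. Between 50 and 200 FPKM they were 12.5% and 8.90%, and at 200 FPKM and above 25% and 15.3%. That 25% was *PFDN2* and *HSPE1*, so it too was partly fixed by the split. *DNAJC17* (8.92 and 11.99 FPKM) likewise entered the class of 10 to 50 FPKM only through the pLVX-*RBP4* group, and it counts in the 17.2%.

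**Figure D3:**
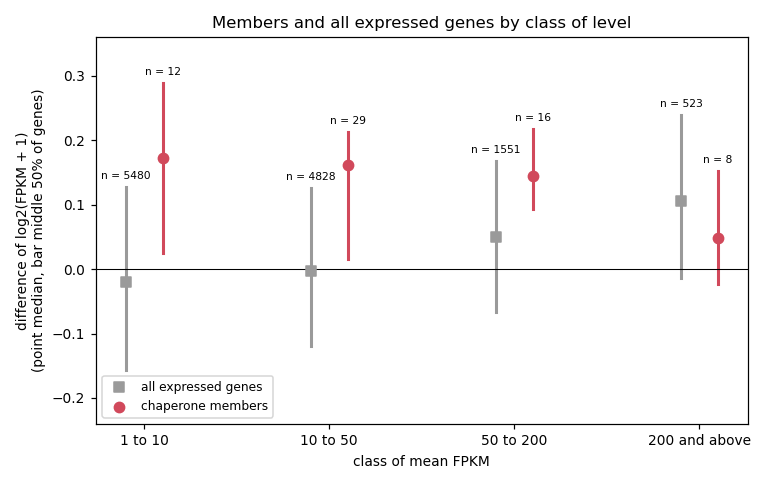
Median difference of log2(FPKM + 1) (points, vertical axis) and middle 50% of genes (bars) in 4 classes of mean FPKM (horizontal axis), for all expressed genes (grey squares) and the chaperone members (red circles), with the number of genes above each bar. The members lie above all genes in the 3 lower classes (0.17, 0.16 and 0.14) and below them in the highest class (0.048 against 0.11).

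Prefoldin, the complex that hands unfolded actin and tubulin to CCT, had 3 members with a name and held 2 of the 4 largest differences. One of these 2, *PFDN2*, had a symbol only in the study's tables of genes chosen for a difference. The median of the 3 was 0.47, the value of *PFDN2* itself, and 0.29 with Ensembl names only. *PFDN2* (ENSSSCG00000006366), a beta-type subunit, had 176 FPKM in CTRL cells and 245 FPKM with pLVX-*RBP4*, a difference of 0.47 and a ratio of 1.39. *PFDN4* (ENSSSCG00000007487), another beta-type subunit, had 14.7 and 22.1 FPKM, a difference of 0.55 and a ratio of 1.499. The alpha-type subunit *PFDN5* was nearly equal in the groups, with 10.7 and 10.9 FPKM (0.027). Setting the dominant gene aside, *PFDN5* was lower (-0.083) and the other two stayed higher. The level of *PFDN2* was 16.6 times that of *PFDN5* in CTRL cells and 22.5 times with pLVX-*RBP4*. *VBP1*, the second alpha-type subunit, does not carry the family's symbol and is no member, and it had 23.2 and 28.5 FPKM (0.29).

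The chaperonin CCT, the ring that receives the clients of prefoldin, was higher as deposited in each of 7 expressed subunits. An 8th expressed member, *CCT6B*, was higher too, but it passed the filter only through the pLVX-*RBP4* group. Of these members 3 (*TCP1*, *CCT3* and *CCT7*) were lower once the dominant gene was set aside. Of all genes 50.2% were higher as deposited, and at the level of the 7 subunits more were. The share was 61.0% between 50 and 200 FPKM, and 71.3% at 200 FPKM and above, the class of *CCT7*. *TCP1* (0.048) and *CCT7* (0.075) lay below the medians of all genes of their classes (0.050 and 0.11). The subunits *TCP1*, *CCT2*, *CCT3*, *CCT4*, *CCT5*, *CCT7* and *CCT8* had between 63.4 FPKM (*TCP1*) and 210.2 FPKM (*CCT7*) in the CTRL group and between 65.6 and 221.5 FPKM in the pLVX-*RBP4* group. Their differences ran from 0.048 for *TCP1* to 0.21 for *CCT2* (115 and 133 FPKM), with a median of 0.12, and none of the 7 reached 0.3. *CCT2*, *CCT5* and *CCT8* had nearly the same level, 115 to 118 FPKM in the CTRL group, and the span from the lowest to the highest subunit was 3.31-fold there and 3.38-fold in the pLVX-*RBP4* group. The 3 prefoldin subunits spanned 16.6-fold and 22.5-fold. *CCT6B*, a testis form of the sixth subunit, was barely expressed (0.884 and 1.29 FPKM) and reached a mean of 1 FPKM only through the pLVX-*RBP4* group, so that its direction was partly fixed by the filter, and *CCT8L2* was listed at 0 in CTRL cells and had 0.0231 FPKM with pLVX-*RBP4*.

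In mitochondria, Hsp60 (*HSPD1*) forms the folding chamber and Hsp10 (*HSPE1*) its lid. *HSPD1* (ENSSSCG00000016077) had 89.8 FPKM in CTRL cells and 114 FPKM with pLVX-*RBP4*, a difference of 0.33. *HSPE1* (ENSSSCG00000016078) had 177 and 227 FPKM, a difference of 0.36. The ratio of *HSPE1* to *HSPD1* was 1.965 in CTRL cells and 2.0003 with pLVX-*RBP4*. In the RefSeq gene order *HSPD1* and *HSPE1* are neighbours, and they are the 1 neighbouring pair found among the members. *HSPA9*, the mitochondrial Hsp70 that pulls proteins in and hands them to Hsp60, had 171 and 188 FPKM, a smaller difference of 0.14.

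The other mitochondrial members were J proteins at lower levels. *DNAJC19*, a partner of the import motor, had 20.6 and 24.1 FPKM (0.22), and *DNAJC4* 16.0 and 18.4 FPKM (0.19). *DNAJC11* had 21.5 and 23.7 FPKM (0.13). *DNAJA3*, the mitochondrial J protein that works with *HSPA9*, had 27.8 and 27.6 FPKM (-0.010). *DNAJC28* had the largest difference downward of all members, from 2.17 to 1.74 FPKM (-0.21). Of the 8 mitochondrial members, 6 were higher, with a median difference of 0.16, while of all genes 50.2% were higher. With the dominant gene set aside their median was 0.046, again with 6 higher, beside 30.1% of all genes. The expressed members of the cytosol, nucleus and other sites were higher in 37 of 43 as deposited.

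**Figure D4:**
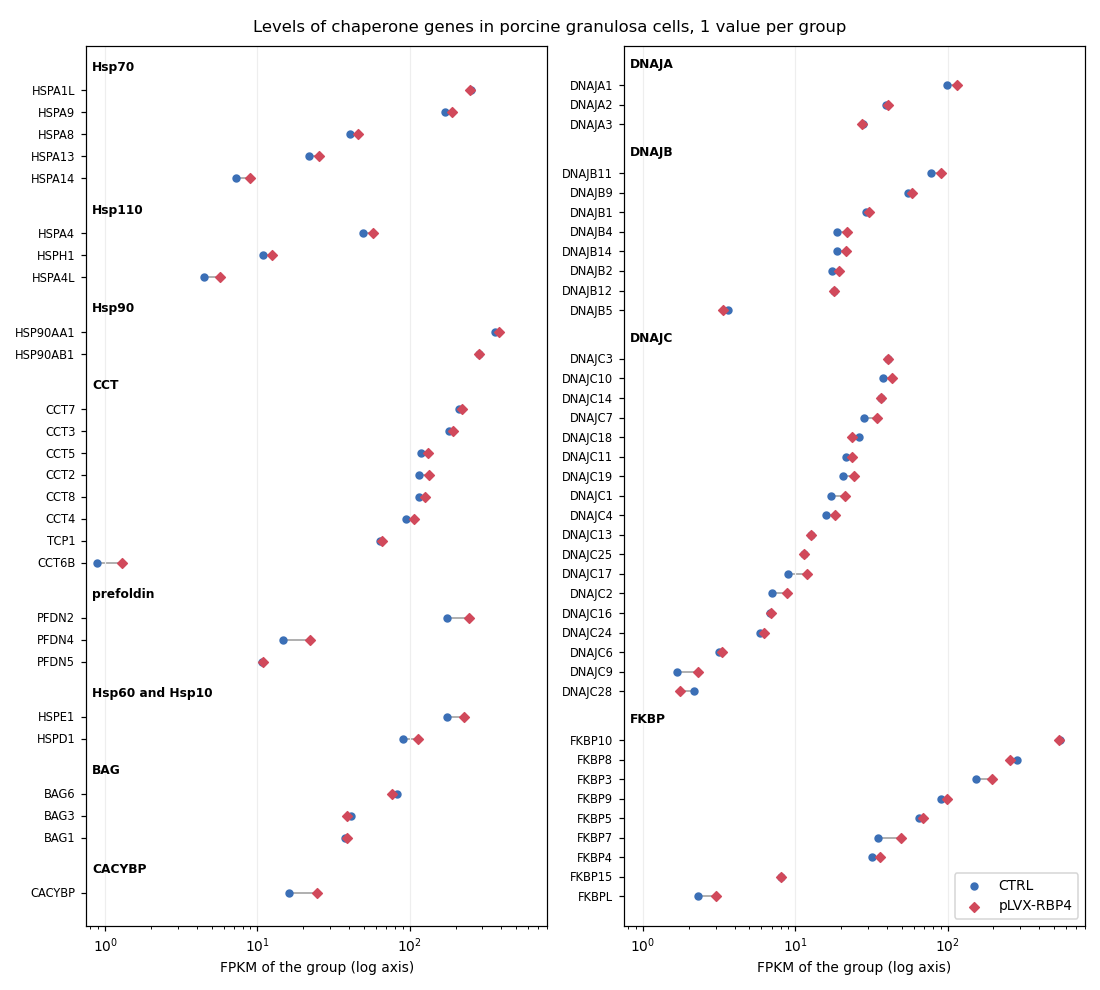
FPKM of the 65 expressed members on a log axis (horizontal), by family and ordered by mean level, with blue circles for the CTRL group and red diamonds for the pLVX-*RBP4* group, 1 value per group. The pairs are widest apart for *CACYBP*, *PFDN4* and *FKBP7* and for some weakly expressed genes such as *CCT6B*, and they overlap for *HSP90AB1* (283 and 287 FPKM) and *FKBP10* (544 and 536 FPKM).

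*HSP90AA1*, the inducible Hsp90, had 366 and 387 FPKM (0.084), and *HSP90AB1*, the constitutive form, 283 and 287 FPKM (0.020), and both were lower with the dominant gene set aside. *HSPA8*, the constitutive Hsp70, had 40.5 and 45.4 FPKM (0.16). The gene named *HSPA1L* was higher than *HSPA8* in both groups, with 254 and 249 FPKM (-0.027), or 6.27 and 5.48 times the level of *HSPA8*. *HSPA1L* is known as a testis gene whose coding sequence is closely similar to that of the inducible Hsp70 genes *HSPA1A* and *HSPA1B*, neither of which was matched by symbol, and how the reads of these copies were divided or named is not known from the table. *HSPA14*, which binds ribosomes with *DNAJC2* and so meets chains while they are made, had 7.23 and 8.93 FPKM (0.27), and *DNAJC2* had 7.02 and 8.79 FPKM (0.29). The ratio of *DNAJC2* to *HSPA14* was 0.971 and 0.984. *HSPA13*, an Hsp70 of the endoplasmic reticulum, had 21.9 and 25.5 FPKM (0.21), and *HSPA12B* was below 1 FPKM in both groups.

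The Hsp110 proteins, which release nucleotide from Hsp70, were all higher by less than the limit, while of all genes 50.2% were higher. *HSPA4* had 49.6 and 57.5 FPKM (0.21), *HSPH1*, the form best known for its induction by heat, 11.0 and 12.5 FPKM (0.18), and *HSPA4L* 4.44 and 5.65 FPKM (0.29). The BAG members had a median below 0 under each of the 5 scalings (-0.086 as deposited). *BAG6*, which guards membrane proteins before their insertion, had 82.5 and 76.0 FPKM (-0.12), and *BAG3*, which sends clients to autophagy and is induced by stress, had 41.1 and 38.6 FPKM (-0.086). *BAG1* had 37.5 and 38.7 FPKM (0.045).

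J proteins made up 33 of the 71 members and 29 of the 65 expressed ones. Of the 29, 23 were higher and 6 lower, with a median difference of 0.094, while of all genes 50.2% were higher. With the dominant gene set aside, 14 of the 29 were higher, beside 30.1% of all genes. The medians of class A (-0.086) and class C (-0.0069) were negative there and above that of all genes (-0.11). As deposited, 3 of the 29 (10.3%) were past the limit, close to the 8.41% of all genes. All 3 were among the 18 expressed genes of class C. *DNAJC17* (ENSSSCG00000004762), a nuclear protein linked to splicing, had 8.92 and 11.99 FPKM, a difference of 0.39. *DNAJC9* (ENSSSCG00000023482), a J protein that also binds histones, was weakly expressed, with 1.66 and 2.31 FPKM (0.31). *DNAJC1* (ENSSSCG00000026001), a membrane protein of the endoplasmic reticulum, had 17.1 and 21.3 FPKM (0.31). *DNAJC7*, which links Hsp70 with Hsp90, was just below the limit, with 28.2 and 34.6 FPKM (0.28).

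The most abundant J protein was *DNAJA1*, the main cytosolic partner of Hsp70, with 98.4 and 116 FPKM (0.23). Its relative *DNAJA2* had 39.7 and 40.6 FPKM (0.031), so that the ratio of *DNAJA1* to *DNAJA2* was 2.48 in CTRL cells and 2.86 with pLVX-*RBP4*. *DNAJB1*, the classical stress-induced partner of Hsp70, was nearly equal, with 29.0 and 30.5 FPKM (0.066). *DNAJB4* had 18.9 and 21.8 FPKM (0.20), *DNAJB2* 17.3 and 19.2 FPKM (0.14), and *DNAJB5* 3.60 and 3.37 FPKM (-0.072). *DNAJC6*, *DNAJC13*, *DNAJC14* and *DNAJC24* differed by 0.0069 to 0.072.

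Although the families are those of the cytosol and mitochondria, 14 members are proteins of the endoplasmic reticulum by textbook knowledge, where they serve the secretory pathway. They had a median difference of 0.11, with 10 of 14 higher, against 0.14 and 37 of 43 for the expressed members of the cytosol, nucleus and other sites. Of all genes 50.2% were higher. With the dominant gene set aside, 7 of 14 and 23 of 43 were higher, beside 30.1% of all genes. The J proteins of that compartment went from *DNAJC18* (26.02 and 23.5 FPKM, -0.14) to *DNAJC1*. *DNAJB11*, which works with *HSPA5*, had 77.2 and 90.4 FPKM (0.22), and *DNAJC10*, a reductase of wrong disulfides, 37.7 and 43.2 FPKM (0.19). *DNAJB9*, a target of the unfolded protein response, had 54.8 and 58.6 FPKM (0.094), and *DNAJC3* 40.6 and 40.4 FPKM (-0.0057). *DNAJB14* had 18.7 and 21.4 FPKM (0.18), and *DNAJB12*, *DNAJC16* and *DNAJC25* differed by -0.0077 to 0.034.

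FKBP proteins catalyse the turn of bonds before proline and bind the drug FK506, and they differed widely. *FKBP7* (ENSSSCG00000015999), of the endoplasmic reticulum, had 34.9 FPKM in CTRL cells and 49.7 FPKM with pLVX-*RBP4*, a difference of 0.50 and a ratio of 1.42. *FKBP3* (ENSSSCG00000021217), a nuclear member, had 153 and 197 FPKM (0.36). The most abundant of all members, *FKBP10*, a collagen chaperone of the endoplasmic reticulum, had 544 and 536 FPKM (-0.022), so that its level was 15.6 times that of *FKBP7* in CTRL cells and 10.8 times with pLVX-*RBP4*. *FKBP8*, anchored in the outer mitochondrial membrane and counted here outside the mitochondrial members, was the second most abundant of the family and was lower, with 286 and 258 FPKM (-0.15).

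*FKBP4* and *FKBP5* compete for Hsp90 in steroid receptor complexes, with *FKBP4* favouring and *FKBP5* damping hormone binding in textbook accounts. *FKBP4* had 31.95 and 35.8 FPKM (0.16) and *FKBP5* 64.9 and 69.3 FPKM (0.092). The ratio of *FKBP5* to *FKBP4* was 2.03 in CTRL cells and 1.93 with pLVX-*RBP4*. *FKBP9* had 90.5 and 98.8 FPKM (0.13), *FKBP15* 8.09 and 8.06 FPKM (-0.0046), and *FKBPL* 2.28 and 3.04 FPKM.

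*CACYBP* (ENSSSCG00000015504) had the largest difference of all members. It is known to bind S100A6 (calcyclin) and to link the ubiquitin ligase SIAH1 to its targets. Its values were 16.0 FPKM in CTRL cells and 24.6 FPKM with pLVX-*RBP4*, a difference of 0.59 and a ratio of 1.53. Ranked among all 12382 expressed genes from the highest difference down, *CACYBP* had rank 182, *PFDN4* rank 210, *FKBP7* rank 279 and *PFDN2* rank 326. *DNAJC17*, *FKBP3*, *HSPE1*, *HSPD1*, *DNAJC9* and *DNAJC1* followed between rank 555 and rank 986.

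**Figure D5:**
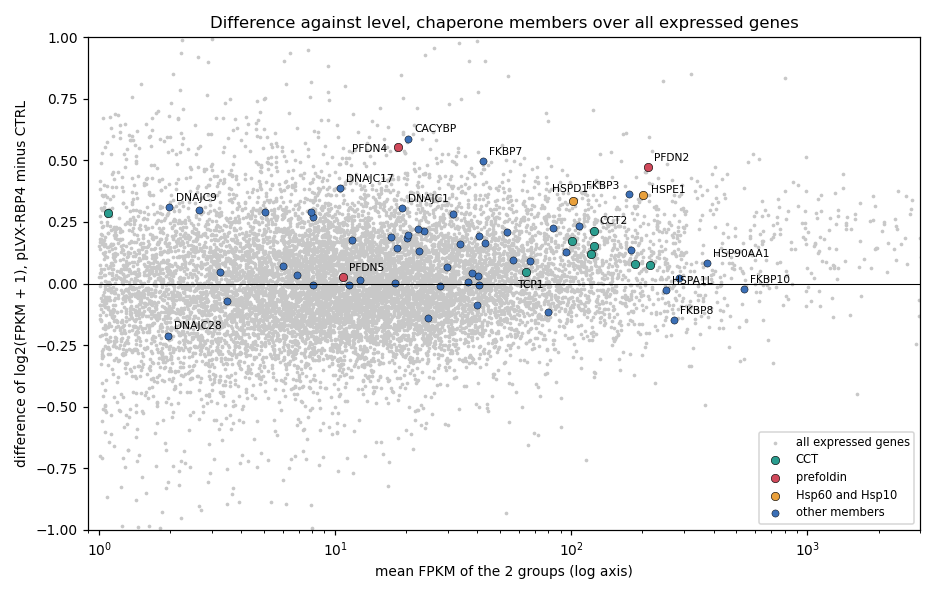
Difference of log2(FPKM + 1), pLVX-*RBP4* minus CTRL (vertical axis), against the mean FPKM of the groups (horizontal log axis) for all expressed genes (grey) and the members (CCT, prefoldin and the Hsp60 and Hsp10 pair in colours of their own, all others in blue). *CACYBP*, *PFDN4*, *FKBP7* and *PFDN2* lie between 0.47 and 0.59, and *HSP90AA1*, *FKBP10* and *FKBP8* lie near or below 0 at the right. The CCT members lie above 0 as deposited, as do 50.2% of all genes, and 3 of 8 lie below it with the dominant gene set aside. 143 genes fall outside the axes.

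A list of 16 chaperone genes linked to the transcription factor *HSF1*, which drives the heat shock response, was matched for 13, among them the constitutive *HSPA8* and *HSP90AB1* and the gene named *HSPA1L*. Of these 11 were higher and 2 lower, *HSPA1L* and *BAG3*, with a median difference of 0.16, while of all genes 50.2% were higher. With the dominant gene set aside 8 of 13 were higher, beside 30.1% of all genes. *CACYBP*, *HSPE1* and *HSPD1* were past the limit (23.1%, beside 8.41% of all genes). The list was chosen with earlier results of these data known, and the study names *CACYBP* among its differentially expressed genes. *HSF1* had 45.3 and 46.8 FPKM (0.048) and *HSF2* 12.5 and 12.9 FPKM (0.036). The small heat shock gene *HSPB1*, which is no member, had 33.4 and 160.0 FPKM (2.23) in the same table, and the largest difference among the members is 0.59.

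Co-chaperones and related factors that the rule did not take in were read from a list of 43 genes, of which 31 were matched and 29 expressed. The list was not limited to co-chaperones and also held *HSF1*, *HSF2*, *VBP1*, *CLPX*, *LONP1* and *TBCA* to *TBCD*. Among the 29, 24 were higher and 5 lower as deposited, with a median difference of 0.064, while of all genes 50.2% were higher. With the dominant gene set aside 10 of 29 were higher, beside 30.1% of all genes (median -0.049, all genes -0.11). Past the limit were 2 genes (6.90%, beside 8.41% of all genes). *SUGT1*, a partner of Hsp90 at the kinetochore, had 23.1 and 33.1 FPKM (0.50), and its symbol came only from the supplementary tables of the study. *TXNDC9*, a regulator of CCT, had 20.2 and 25.6 FPKM (0.33). The Hsp90 partners of the list differed in size and direction. *STIP1*, which joins Hsp70 to Hsp90, had 95.0 and 97.1 FPKM (0.032), and *CDC37*, which brings kinases, 136 and 133 FPKM (-0.030). *PTGES3*, the p23 protein, had 73.6 and 78.8 FPKM (0.097). *PPID* had 14.7 and 18.0 FPKM (0.28), *NUDC* 97.9 and 111 FPKM (0.18) and *UNC45A* 56.1 and 50.6 FPKM (-0.15). *ST13* had 198 and 201 FPKM, the ubiquitin ligase *STUB1* 103 and 108 FPKM, and the mitochondrial Hsp90 *TRAP1* 64.7 and 66.3 FPKM.

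Of the 71 members, 6 were listed below the mean of 1 FPKM. A listed value at or near 0 need not mean a low level, since *AHSA1*, a widely expressed Hsp90 activator, was listed at 0 and 0.0557 FPKM and *LONP1*, a mitochondrial protease, at 0.0883 and 0.0755 FPKM. *DNAJC22* was listed at 0 in both groups, *DNAJB8* and *CCT8L2* at 0 in the CTRL group, and *HSPA12B*, *DNAJB13* and *DNAJC27* had between 0.0992 and 0.884 FPKM. Summed over all 71 genes, the members had 4676 FPKM in CTRL cells and 5077 FPKM with pLVX-*RBP4*, a ratio of 1.09. They made up 0.414% and 0.475% of all FPKM, and 0.641% and 0.640% of the FPKM without the dominant gene ENSSSCG00000025162.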

How the data were processed

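RNA of primary porcine granulosa cells was sequenced from 3 pLVX-*RBP4* and 3 CTRL libraries. The authors aligned the reads to Sscrofa10.2 with TopHat2, calculated FPKM and compared the groups with Cuffdiff, and tool versions are not given in the sources used here. The deposited table holds FPKM values made by the authors, with 1 value per gene for each group (columns C and R, taken as CTRL and pLVX-*RBP4*), so the libraries of a group are combined in it and it holds no read counts. The mapped reads of each library are given by the study and were not used here. With 1 value per group, the limma fit planned for values per library could not be made, no p-value or SD is given, and no interval was computed. Low values carried a trace of depth (among 865 genes under 0.1 FPKM the commonest ratio between the groups was 0.7 to 0.8, in 123 genes), which was not used.

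Differences of log2(FPKM + 1) were computed in Python 3.11.15 with numpy 2.4.6 and pandas 2.3.3, drawn with matplotlib 3.10.9, and checked on made-up values. Genes averaging 1 FPKM or more were kept, and a difference of 0.3 served as the limit. The pseudocount makes the change of weakly expressed genes smaller. Symbols came from Ensembl names (10489 genes) or only from the supplementary tables of the study (268 genes). Named were all members past the limit, the 2 most abundant of each family, the heat shock list and outside genes past the limit, and further members where a family was described gene by gene. The members and lists were chosen with earlier results of these data known. Promoter motifs, protein lengths and sequences were not analysed here.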

Additional observations from a re-analysis of the deposited data

How the results depend on the processing

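The number of members higher by at least 0.3 (10) became 15 with a pseudocount of 0.1 (10.8% of all genes) or 0.01 (11.0%), 18 after rescaling to a common sum (13.8%), 4 (*CACYBP*, *PFDN4*, *FKBP7* and *PFDN2*) after rescaling to a common sum without the dominant gene (4.24%), and 2 with a limit of 0.5 (2.21%). The number lower by at least 0.3 (0) became 1 with a pseudocount of 0.1 (9.13% of all genes) or 0.01 (9.47%). It also became 1 after rescaling without the dominant gene (15.8%). Under the last of these, the median difference was 0.017 for all members, 0.048 for Hsp70, 0.093 for Hsp110, -0.067 for Hsp90, 0.018 for CCT, 0.35 for prefoldin, 0.23 for Hsp60 and Hsp10, -0.086 for DNAJA, 0.0046 for DNAJB, -0.0069 for DNAJC, -0.20 for BAG and 0.0081 for FKBP. The median of all genes shifted to -0.11 there, and relative to it, an alternative chosen after seeing the data, 51 of 65 members were higher and 13 passed the limit, beside 8.93% of all genes. Prefoldin was 0.35 as a mean, and 0.29 with Ensembl names only, which was also chosen after seeing the data. Of the values of counts and medians, 159 moved by less than 0.1 (log2) or by at most 1.5-fold, limits set after the data were seen. They include the counts of 15, 51 and 13 given above. Of the differences of single named members, 32 moved by 0.1 or more and 224 did not. Nearly all of the 32 came from rescaling without the dominant gene. No difference past the limit changed its sign. No paired analysis was possible because the table holds 1 value per group and its columns carry no replicate number, and leaving out libraries was not run for the same reason. Counting error in weakly expressed members such as *DNAJC9*, *DNAJC28* and *CCT6B* was not computed, since the table holds no read counts.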
